A study of Rattus norvegicus with 13 samples.

Results

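Meiotic DNA double-strand break (DSB) hotspots of the rat often lay close together, and 11026 of the 91120 autosomal hotspot windows (12.1%) fell in dense clusters. A window is a 3000 bp stretch of the deposited table in which a hotspot was called in at least 1 of 5 libraries. A window was counted as a cluster window when 8 or more other windows of the table, from any library, started within 50 kb of its own start, both sides together. The rule uses positions only, on chromosomes 1 to 20. Cluster windows whose starts lay up to 50 kb apart were joined, which gave 1762 clusters.

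The 5 libraries came from DMC1 SSDS of adult rat testis, 1 library per condition: wild-type SHR/OlaIpcv (SHR), wild-type WKY, wild-type BN/RIJHsd (BN), SHR heterozygous for a Prdm9 knockout (Prdm9+/-, here KO/wt) and SHR without functional Prdm9 (Prdm9-/-, here KO/KO). WKY and SHR share 1 Prdm9 allele, which differs from that of BN. By the study's description, the KO/KO male was homozygous for a truncating deletion and was compared with a wild-type littermate. Which deletion the KO/wt male carried is not given in the sources used here. The other 8 samples of the 13 in the series (H3K4me3 ChIP-seq and input DNA) have no values in the table and were not analysed here.

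PRDM9 is a histone H3 lysine 4 methyltransferase whose zinc-finger array binds DNA, and in mice and humans it decides where meiotic DSBs are made. Alleles that differ in the zinc fingers direct DSBs to different sites. In mice lacking PRDM9, DSBs form instead at sites that carry H3K4me3 without it, gene promoters among them. DMC1 is a meiotic recombinase that coats the single-stranded DNA at a DSB, and SSDS sequences the single-stranded DNA recovered with an anti-DMC1 antibody.

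Hotspot strength is the deposited score of a window in a library, whose computation and scaling are not given, so strengths were compared within a library only. Number of reads per library is unknown. With 1 library per condition there is no replicate error and no test between conditions, and no p-value is given. Intervals on shares are 95% Wilson intervals over windows and cover counting error only. They are too narrow for clusters, since 3753 cluster windows (34.0%) overlapped another window and so shared signal with it, against 17.4% of autosomal windows. Testis marker genes could not be examined, as the table holds no expression values, and no genes or sequences are named because no rn5 genome or annotation was used here.

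Most clusters were small, with a median of 5 windows and a median span of 45.8 kb. There were 324 clusters of 1 window, whose neighbours missed the threshold themselves, and 381 clusters of 10 or more windows, which held 5533 cluster windows. Together the clusters spanned 89.1 Mb, 3.25% of the 2741 Mb between the first and last windows of the autosomes. A cluster window had a median of 9 others within 50 kb and at most 37, while the median over the autosomal windows was 4. Within clusters, neighbouring starts were a median of 6576 bp apart, compared with 16130 bp over the autosomes. The rule selects windows with many close neighbours, so the direction of both differences was set by it.

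Knockout hotspots made up a larger part of the cluster windows than of autosomal windows, and hotspots of either Prdm9 allele a smaller part. Windows were sorted into kinds by the calls. SHR/WKY-allele windows were called in wild-type SHR or WKY but in neither BN nor KO/KO, BN-allele windows in BN alone of these 4 libraries, and knockout windows in KO/KO alone of them. Of the cluster windows, 5018 were knockout windows, 45.5% (44.6 to 46.4%), compared with 37.2% of the autosomal windows outside clusters. SHR/WKY-allele windows numbered 3623, 32.9% (32.0 to 33.7%), compared with 40.4% outside. BN-allele windows numbered 1972, 17.9% (17.2 to 18.6%), compared with 20.3% outside. The shares outside the clusters lay beyond these intervals. The intervals cover counting error only and treat neighbouring windows as independent, so they are no test of the difference. The few remaining cluster windows were 195 mixed windows, called in more than 1 of these 3 kinds (1.77%), and 218 windows called in KO/wt alone (1.98%).

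The mix changed gradually with density up to the clusters and turned at the highest densities. The knockout share was 25.1% among windows with 0 or 1 others within 50 kb, 45.3% with 6 or 7, 46.7% with 8 or 9, and 48.2% with 10 to 13. Over the same classes of density the SHR/WKY-allele share went from 52.2% to 33.6%, 32.5% and 30.9%. Crossing the threshold itself moved little. The 7204 windows just outside it, with 7 others, were 46.4% knockout, 33.2% SHR/WKY-allele and 17.8% BN-allele. The 4864 windows just inside, with 8 others, were 46.0%, 32.9% and 17.9%. The 579 cluster windows with 14 or more others (5.25%), a split chosen after values were seen, had the opposite mix. Of these, 16.9% were knockout windows, 47.3% SHR/WKY-allele windows and 26.9% BN-allele windows, and mixed windows reached 6.74%. These windows were unevenly spread, with 104 on chromosome 15, 98 on chromosome 9 and 0 on chromosomes 5, 11 and 16. Neighbouring windows are not independent, so this mix rests on fewer places than windows. The kinds also rest on call marks. Of the windows with 14 or more others that WKY did not call, 10% had WKY strengths above 637, compared with 51 in uncalled autosomal windows. Without the 579 windows, the knockout share of the cluster windows was 47.1%.

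**Figure D1:**
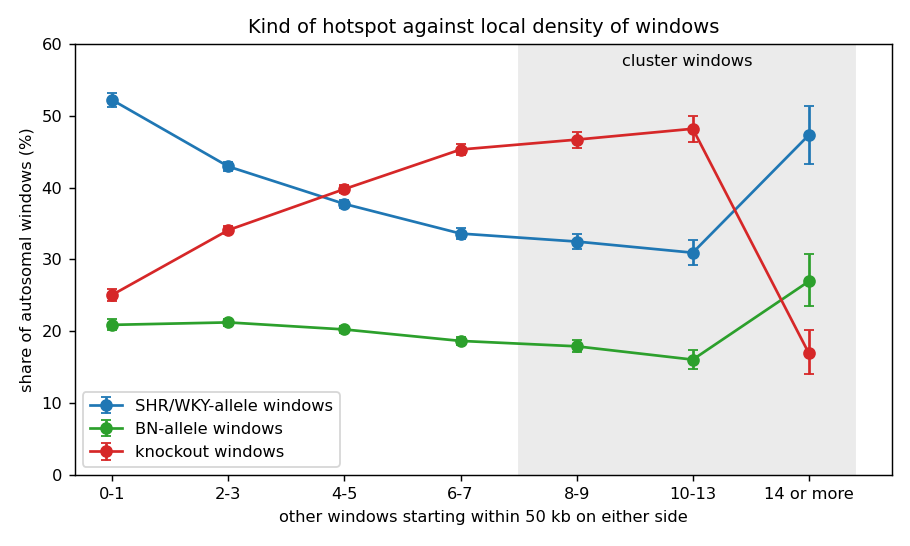
Share of autosomal windows (%, y axis) of the SHR/WKY-allele, BN-allele and knockout kinds against the number of other windows starting within 50 kb (x axis), with 95% Wilson intervals over windows and cluster windows shaded. The knockout share goes from 25.1% at 0 or 1 others to 48.2% at 10 to 13 and is 16.9% at 14 or more, where the SHR/WKY-allele share is 47.3%.

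Counted by library, calls from KO/KO were over-represented in clusters. KO/KO called 5117 of the cluster windows (46.4%), while it called 38.8% of autosomal windows. WKY called 3537 (32.1%), against 38.3% of autosomal windows. BN called 2098 (19.0%), against 20.8%. The SHR libraries with functional Prdm9 called the fewest, with 1738 in wild-type SHR (15.8%, against 21.8%) and 2011 in KO/wt (18.2%, against 21.6%). Most cluster windows were called in 1 library alone, 80.2% compared with 75.3% of autosomal windows. Seen from each library, clusters held 14.5% of the autosomal hotspots of KO/KO, 11.0% of those of BN, 10.2% of those of KO/wt, 10.1% of those of WKY and 8.73% of those of SHR.

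Crowding was also counted among the hotspots of a single library. Of the 35375 autosomal KO/KO hotspots, 24.2% had 4 or more other KO/KO hotspots within 50 kb. WKY, with nearly as many hotspots (34872), reached 8.22%. BN reached 3.59%, KO/wt 1.73% and SHR 1.35%, but these libraries have fewer hotspots (18995 to 19898). With 8 or more of the same library, as the cluster rule asks of all libraries together, KO/KO no longer stood above WKY. The shares were then 1.68% in KO/KO, 1.72% in WKY, 1.31% in BN, 0.0553% in SHR and 0% in KO/wt. The highest count around 1 hotspot was 24 in BN, 20 in WKY and 18 in KO/KO. This crowding is not independent of the cluster mix, since a library whose own hotspots lie close together brings them over the threshold by itself.

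Most larger clusters held windows of each kind. Of the 381 clusters of 10 or more windows, 285 (74.8%) held windows of all 3 kinds, 74 (19.4%) held 2 kinds and 22 (5.77%) held 1 kind. The window nearest to a knockout cluster window was another knockout window in 48.6% of cases, above the 45.5% that knockout windows take of all cluster windows. For BN-allele windows this was 20.3% beside 17.9%, and for SHR/WKY-allele windows 40.2% beside 32.9%. An excess was not particular to clusters. Over the autosomal windows the values were 43.2% beside 38.2% for knockout, 20.6% beside 20.0% for BN-allele and 43.2% beside 39.5% for SHR/WKY-allele windows. With 8 to 13 others, the intervals for knockout (46.8 to 49.6%) and BN-allele windows (16.4 to 20.0%) included their shares, 47.1% and 17.4%. For SHR/WKY-allele windows the value was 37.5% (35.9 to 39.2%) beside 32.1%. Among windows with 14 or more others, the nearest window was of the same kind more often. There it was 73.4% beside a share of 47.3% for SHR/WKY-allele windows. For BN-allele windows it was 46.2% beside 26.9%, and for knockout windows 65.3% beside 16.9%.

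A cluster on chromosome 1 (rn5, 153096145 to 153214965, 119 kb) held windows of each kind and the strongest cluster window of 4 libraries. Its 19 windows comprised 5 SHR/WKY-allele, 5 BN-allele, 6 knockout, 2 mixed and 1 KO/wt-only window. Of its 18 pairs of neighbours, 15 were of different kinds, and whether this differs from a random order was not tested. The strongest cluster window of SHR, WKY and KO/wt was its last, at 153211965 to 153214965. That window had a strength of 7282 in SHR, 13250 in WKY, 9559 in KO/wt, 46 in KO/KO and -4 in BN. It was thus called in the 3 libraries with a functional SHR/WKY allele and in neither of the others. The strongest cluster window of BN lay in the same cluster, at 153132652 to 153135652. Its strength was 3008 in BN, 13 in WKY, 2 in KO/KO, -8 in KO/wt and -32 in SHR. A neighbouring window that overlaps it, at 153130145, had 817 in WKY, 305 in SHR, 148 in KO/wt, 1 in KO/KO and -289 in BN. Hotspots of different alleles therefore lay in overlapping windows, and the low BN value sat beside the strong BN hotspot. The 6 KO/KO hotspots of the cluster ranged from 23 to 484, with a median of 259. Of these windows, the 1 that KO/wt also called, at 153100352, had 266 in KO/KO and 42 in KO/wt.

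**Figure D2:**
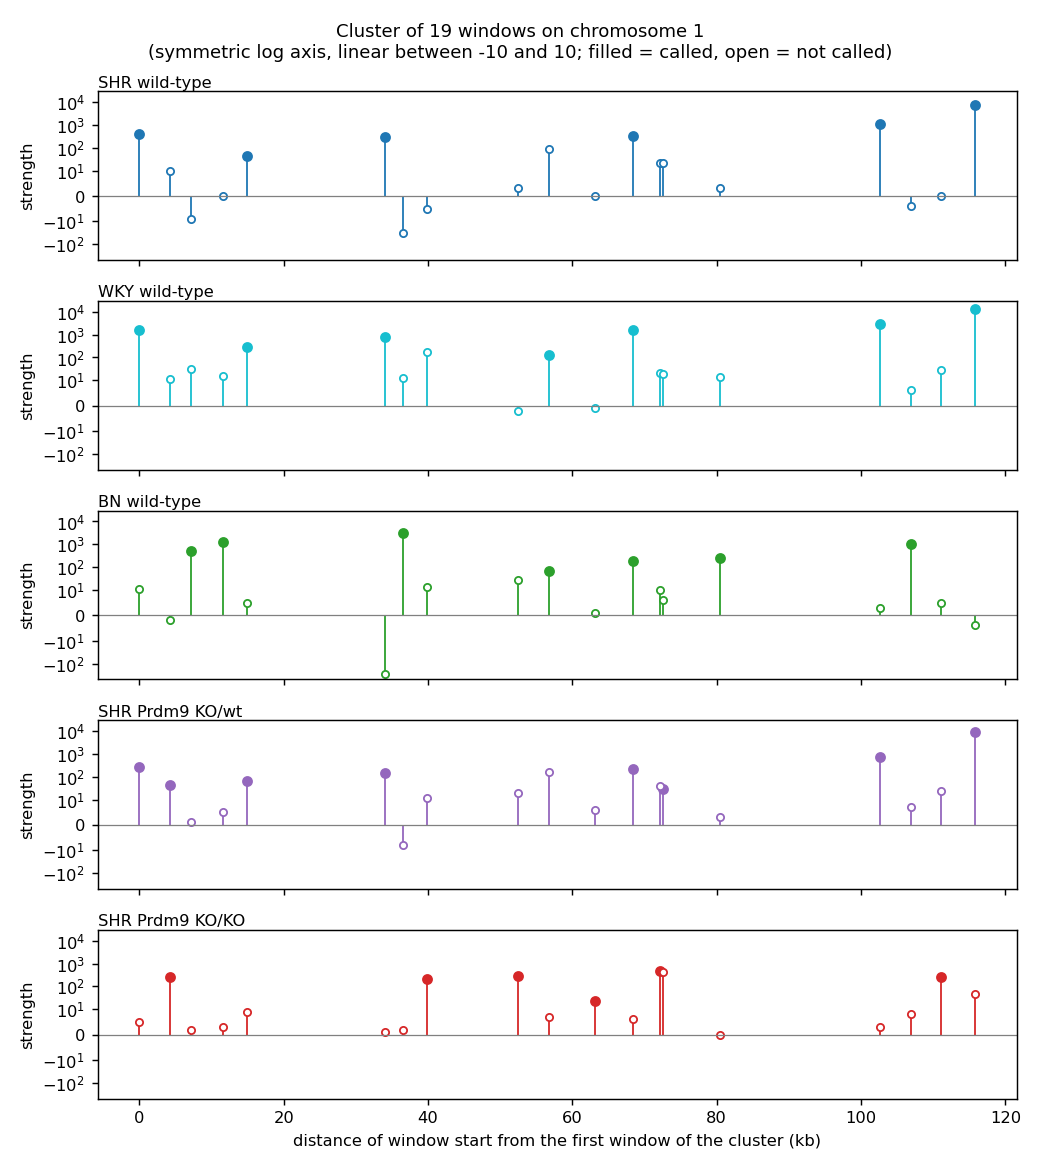
Hotspot strength (y axis, symmetric log scale, linear between -10 and 10) of the 19 windows of the chromosome 1 cluster in each of the 5 libraries, against distance of the window start from the first window (kb, x axis), with filled points for called and open points for uncalled windows. The strongest point lies at 116 kb in SHR, WKY and KO/wt (7282, 13250 and 9559), and the strongest BN point, 3008, at 36.5 kb.

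The strongest KO/KO cluster window lay on chromosome 14 (107870145 to 107873145), in a cluster of 24 windows of which 14 were knockout windows. It was called in each of the 5 libraries, with a strength of 1561 in KO/KO, 525 in KO/wt, 180 in WKY, 109 in SHR and 63 in BN. Unlike the chromosome 1 windows, it was called with either Prdm9 allele and without functional Prdm9. The KO/KO strengths of the 15 windows called in that cluster ranged from 32 to 1561, with a median of 103.

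The clusters with the most windows differed from this picture, as knockout hotspots were few in them. The largest held 76 windows over 308 kb on chromosome 15 (9435022 to 9742587), with 32 SHR/WKY-allele, 24 BN-allele, 20 mixed and 0 knockout windows. WKY called 51 of them, with strengths from 76 to 736 and a median of 241, and SHR called 1, with a strength of 88. BN called 44, with strengths from 30 to 254 and a median of 104. The 25 windows that WKY did not call had a median WKY strength of 273, above that of the called ones, and 61 of the 76 windows overlapped another. Windows that BN did not call had a median BN strength of 85.5, above the autosomal BN median of 71. The kinds here record call marks and not the absence of signal in the other libraries. The longest cluster, 381 kb with 52 windows on chromosome 7 (21650837 to 22031944), held 21 SHR/WKY-allele, 24 BN-allele and 1 knockout window. WKY strengths of its 23 called windows ranged from -107 to 1609 (median 371), and BN strengths of its 28 from 41 to 243 (median 126). Windows there that WKY did not call had WKY strengths from 27 to 1748 (median 184). A cluster of 42 windows on chromosome 1 (186209173 to 186414968) was of the same type, with 15 SHR/WKY-allele, 23 BN-allele and 0 knockout windows. The other cluster of 42 windows, on chromosome 15 (106870402 to 107209342), was mixed instead, with 11 SHR/WKY-allele, 11 BN-allele and 18 knockout windows. The median KO/KO strength of its 18 called windows was 83.5, with a range from 10 to 414.

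Some clusters were called almost wholly in 1 library. The cluster on chromosome 9 at 3649933 to 3923142 held 44 windows, each called in WKY and in no other library, and it had the most SHR/WKY-allele windows. WKY strengths ran from -59 to 253 with a median of 118. In the libraries that did not call them, the median was 5.5 in SHR, 12.5 in BN, 17.5 in KO/wt and 11.5 in KO/KO. SHR, which has the same Prdm9 allele as WKY, thus showed no called hotspot there. The cluster with the most BN-allele windows, also on chromosome 9 (20760664 to 20904691), held 28 windows called in BN alone, with strengths from 9 to 276 and a median of 72. WKY had a median of 46 at these windows. The cluster with the most knockout windows lay at the end of chromosome 20 (57566325 to 57773250) and includes the last window of that chromosome. KO/KO called 32 of its 36 windows, with strengths from 0 to 150 and a median of 38.5, below the autosomal KO/KO median of 64.

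Such clusters were counted with a limit chosen after values were seen, as clusters of 10 or more windows with at least 90% of them called in 1 library alone. WKY had 22 of these, with 396 windows on 8 chromosomes, while KO/KO had 7 with 101 windows, BN had 2 with 45 windows, and SHR and KO/wt had 0. The 390 WKY hotspots in the 22 WKY clusters had a median strength of 115, with 10% below 63 and 10% above 220. Their windows had raised values in the libraries that did not call them, with medians of 7 in SHR, 14 in BN, 17 in KO/wt and 10 in KO/KO, compared with 3, 8, 7 and 3 in uncalled autosomal windows. The part of these raised values in the WKY calls was not tested. Outside these 22 clusters, cluster windows were 47.2% knockout, 30.4% SHR/WKY-allele and 18.5% BN-allele. As the 22 clusters were chosen for calls in WKY alone, leaving them out raises the knockout share by construction.

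**Figure D3:**
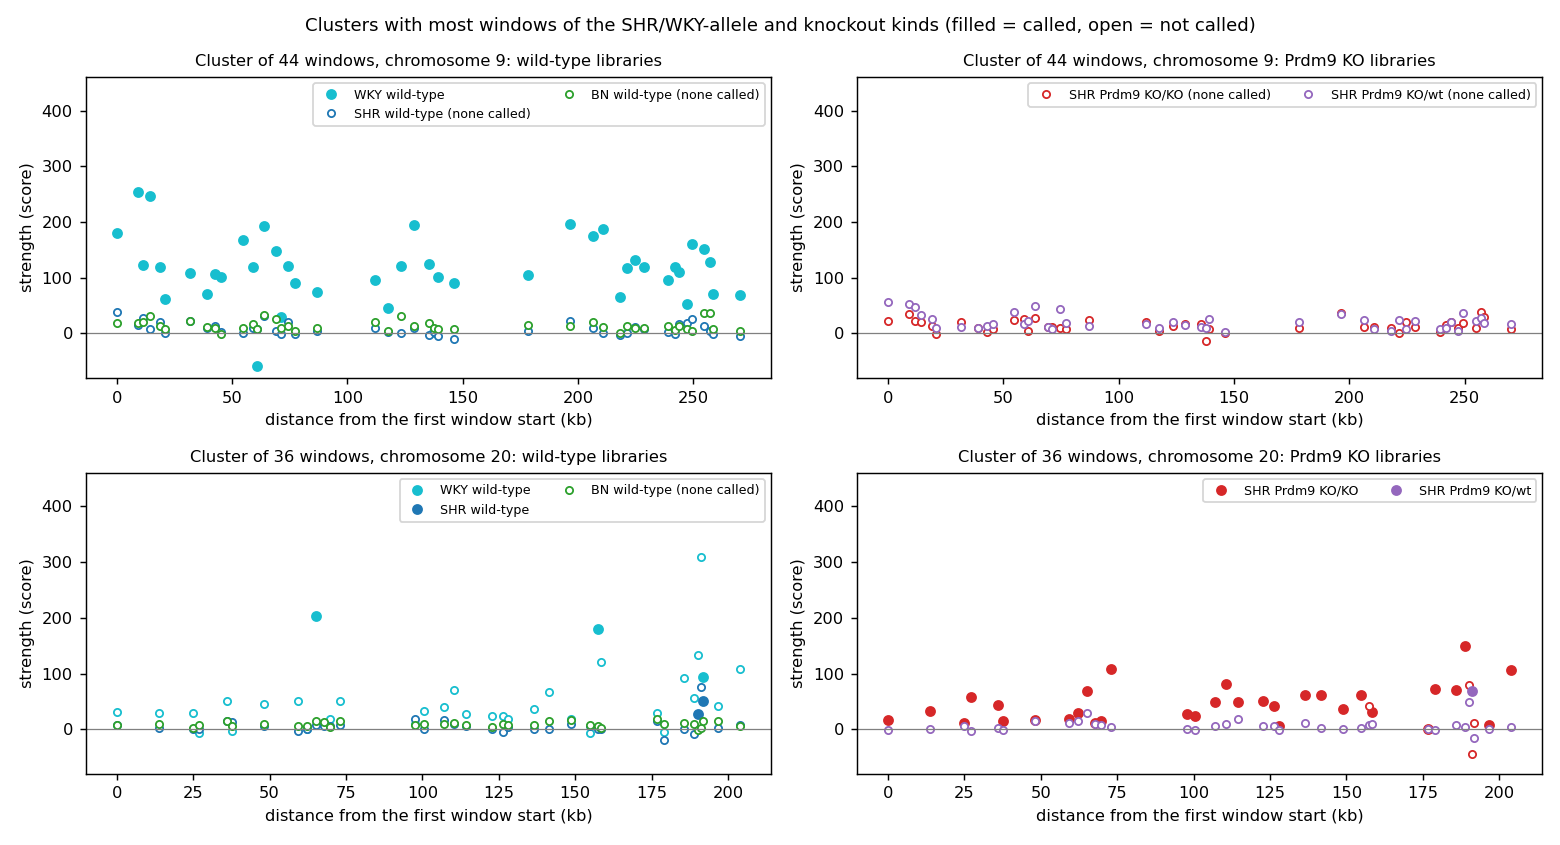
Hotspot strength (y axis) against distance from the first window start (kb, x axis) in the cluster of 44 windows on chromosome 9 (top) and of 36 windows on chromosome 20 (bottom), with wild-type libraries on the left, KO libraries on the right, filled points for called and open points for uncalled windows. WKY calls each of the 44 windows on chromosome 9 (median 118) and KO/KO calls 32 of 36 on chromosome 20 (median 38.5), while each of the other libraries calls 0 to 3 of the windows of either cluster.

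Strength in clusters stood close to that of autosomal hotspots in 3 libraries, was higher in BN and was lower in KO/wt. The median BN strength was 79 in clusters and 71 over the autosomes, and 55.1% (53.0 to 57.2%) of the BN hotspots in clusters exceeded the autosomal median. The median KO/wt strength was 61, compared with 70, and 43.7% (41.6 to 45.9%) exceeded it. In KO/KO the median was 65, compared with 64 (50.4% above, 49.0 to 51.8%). In SHR the median was 69, compared with 72 (47.5% above, 45.2 to 49.9%). In WKY the median was 202, compared with 210 (48.2% above, 46.5 to 49.8%). The 390 WKY hotspots in the clusters called in WKY alone had a median of 115. Without them the WKY median was 224, and 52.6% (50.9 to 54.4%) lay above 210. Those clusters were chosen after values were seen, by their calls and not by strength. As their hotspots were weaker, leaving them out raises the median of the rest. Between 10% and 90% of hotspots, cluster strengths spanned 31 to 230 in SHR, 95 to 657 in WKY, 39 to 239 in BN, 28 to 255 in KO/wt and 25 to 234 in KO/KO. These differences in median were thus small beside the spread among hotspots of 1 library.

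BN strength was higher in each denser class or level with the one before. Its median was 64 with 0 or 1 others, 75 with 6 or 7, 75 with 8 or 9, 81 with 10 to 13 and 103 with 14 or more (186 hotspots). KO/wt moved the other way, from 78 with 0 or 1 others to 56 with 10 to 13, but was 73 in the 35 hotspots with 14 or more. WKY was highest in the middle, with 183 at 0 or 1, 228 at 6 or 7 and 162 at 14 or more others. KO/KO was 55 at 0 or 1 others and between 61 and 67 in denser classes. From 7 to 8 others, across the threshold, the median went from 74 to 70 in SHR, 228 to 213.5 in WKY, 71 to 75 in BN, 67 to 61 in KO/wt and 66 to 65 in KO/KO. The strongest 10% of hotspots fell in clusters at 16.4% in KO/KO and 13.3% in BN, above the share of their hotspots as a whole (14.5% and 11.0%). The reverse held in KO/wt, at 8.88% compared with 10.2%. In SHR and WKY the strongest 10% fell in clusters at 9.43% and 10.3%, with intervals (8.23 to 10.8% and 9.38 to 11.4%) that include the shares of their hotspots as a whole.

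**Figure D4:**
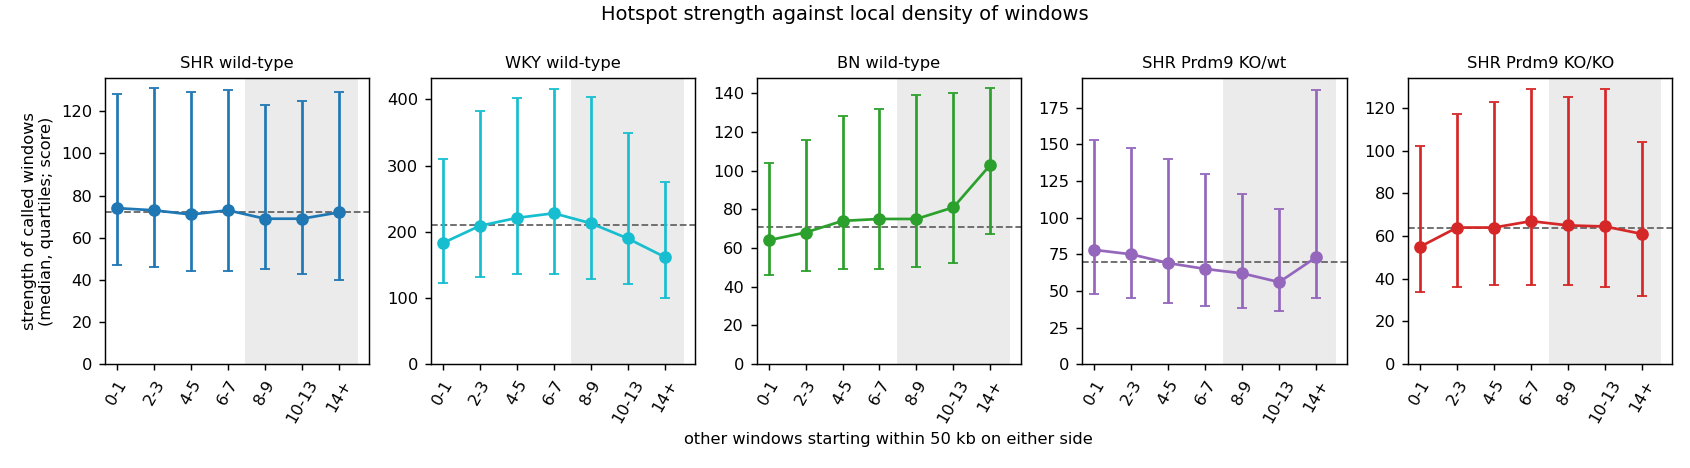
Median hotspot strength of called windows with the quartiles as bars (y axis, each library on its own scale starting at 0) against the number of other windows starting within 50 kb (x axis), with the autosomal median as a dashed line and cluster windows shaded. The BN median goes from 64 to 103, the KO/wt median from 78 to 56 before 73 in the densest class, and the KO/KO median lies between 55 and 67.

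Sharing between the strains with the same allele was lower in clusters. Of the SHR hotspots in clusters, 85.4% (83.7 to 87.0%) were also called in WKY, compared with 89.5% over the autosomes. When a call in an overlapping window also counted, the shares were 92.8% (91.5 to 93.9%) and 93.2%, which differ by less than the counting error. Of the WKY hotspots in clusters, 42.0% (40.4 to 43.6%) were also called in SHR, compared with 51.1%, and 46.2% and 53.6% with overlapping windows. With 8 to 13 others the share was 45.4%. With WKY hotspots ranked into 5 equal classes of strength, the share with 8 to 13 others was below the autosomal one in each class, from 7.08% compared with 11.8% in the weakest to 85.6% compared with 87.0% in the strongest. In the strongest class the autosomal share was within the interval of the clusters (82.7 to 88.0%). The cluster windows include the 396 of the clusters called in WKY alone, of which SHR called 2. Their part in the lower sharing was not tested.

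Hotspots of BN, directed by another allele, coincided with those of WKY more often in clusters, but not with those of SHR when the same window was asked for. Of the BN hotspots in clusters, 95 of 2098, 4.53% (3.72 to 5.50%), were also called in WKY, compared with 2.94% over the autosomes. Of these, 28 were among the 186 with 14 or more others, and with 8 to 13 others the share was 3.50% (2.77 to 4.43%), whose interval includes the autosomal share. SHR shared 1.48% (1.04 to 2.09%) of the BN hotspots in clusters, compared with 1.72% over the autosomes, and 0 of the 186. When a call in an overlapping window also counted, both shares were higher in clusters. Cluster windows overlap others more often whatever the library (34.0% against 17.4%), and the part of this in the higher shares was not tested. The shares with WKY were 21.9% in clusters and 18.7% (16.99 to 20.48%) with 8 to 13 others, compared with 11.3% over the autosomes. The shares with SHR were 9.34%, 9.94% and 6.27%.

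Hotspots of both SHR libraries with functional Prdm9 coincided more often with those of KO/KO in clusters. Of the 2011 KO/wt hotspots, 362 were called in the same window in KO/KO, 18.0% (16.4 to 19.7%), compared with 10.3% over the autosomes and 3.01% among windows with 0 or 1 others. With overlapping windows the shares were 40.3% in clusters and 19.1% over the autosomes. Wild-type SHR showed a rise of the same direction, with 2.65% (1.99 to 3.51%) of its cluster hotspots called in KO/KO compared with 1.34%, and 21.6% compared with 8.29% with overlapping windows. Counted from KO/KO, 7.07% (6.404 to 7.81%) of its cluster hotspots were called in KO/wt, compared with 5.70%. Density itself differs between these classes of windows, and its part in the difference was not tested. Split by origin, 67.2% of KO/wt hotspots in clusters were also called in wild-type SHR (median KO/wt strength 84), compared with 81.8% outside clusters (median 87). A further 15.9% were called in KO/KO and not in SHR (median 39), compared with 8.18% outside (median 39), and 16.9% in neither (median 36), compared with 10.02% (median 38). The 2 weak groups took a larger share of the KO/wt hotspots in clusters, and medians within each group differed by 3 or less. The part of these shares in the lower KO/wt median was not tested. Of the 218 cluster windows called in KO/wt alone, 172 (78.9%) overlapped a window called in KO/KO, compared with 58.3% of the 941 such windows on the autosomes, and 58 (26.6%) overlapped a window called in SHR or WKY, compared with 25.8%. Cluster windows overlap others more often in general (34.0% against 17.4%), and the part of this was not tested. The median strength of the 218 windows was 169.5 in KO/KO, 36 in KO/wt and 10 in SHR. An example is in the chromosome 1 cluster, where the window at 153168641, called in KO/wt alone, had 450 in KO/KO, 30 in KO/wt, 22 in SHR, 18 in WKY and 6 in BN. It overlapped a window 419 bp upstream by start that KO/KO called with 484.

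Clusters were most frequent towards both ends of the chromosomes. When the span of each chromosome between its first and last window was split into 10 equal parts, 17.7% and 15.6% of windows in the outer 2 parts at the start were cluster windows, and 13.1% and 16.2% in the outer 2 at the end. The parts between ranged from 8.86% to 10.3%. Within 10 Mb of the last window of a chromosome, 1487 of 8397 windows were in clusters (17.7%), and this stretch held 13.5% (12.9 to 14.1%) of cluster windows but 9.22% of autosomal windows. In the first 10 Mb of a chromosome, 1309 of 5852 were in clusters (22.4%), 11.9% of cluster windows but 6.42% of autosomal windows. The knockout share of cluster windows was 51.3% in the last 10 Mb, 40.3% in the first 10 Mb and 45.3% between. Windows outside clusters differed by place too, with 42.1%, 36.5% and 36.7%, and at each place the knockout share was higher in clusters. The first 10 Mb held 167 of the 396 windows of the clusters called in WKY alone, and without those clusters the knockout shares of cluster windows were 53.1%, 46.1% and 46.3%. Leaving out clusters chosen for calls in WKY alone raises the knockout share by construction.

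The share of windows in clusters ranged from 7.35% on chromosome 5 to 19.9% on chromosome 20, followed by 16.6% on chromosome 12, 15.8% on chromosome 15 and 15.3% on chromosome 9. Knockout windows took 65.8% of cluster windows on chromosome 20 and 62.2% on chromosome 12, and 50.6% and 48.1% of the other windows of these chromosomes. The knockout share was higher in cluster windows than in the others on 19 of 20 autosomes, by up to 15.5 percentage points on chromosome 10. The exception was chromosome 9, where it was 33.8% in clusters and 38.8% outside. Without the 140 windows of WKY-alone clusters there, it was 41.5%. A rise on leaving them out was fixed by how those clusters were chosen, so the exception remains. The SHR/WKY-allele share was higher in clusters on 1 autosome, chromosome 9 again, and the BN-allele share on 3. The BN median strength was higher in clusters on 17 of 20 autosomes and the KO/wt median lower on 16. For the other libraries the direction varied, with the cluster median higher on 7 in SHR, 9 in WKY and 12 in KO/KO.

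**Figure D5:**
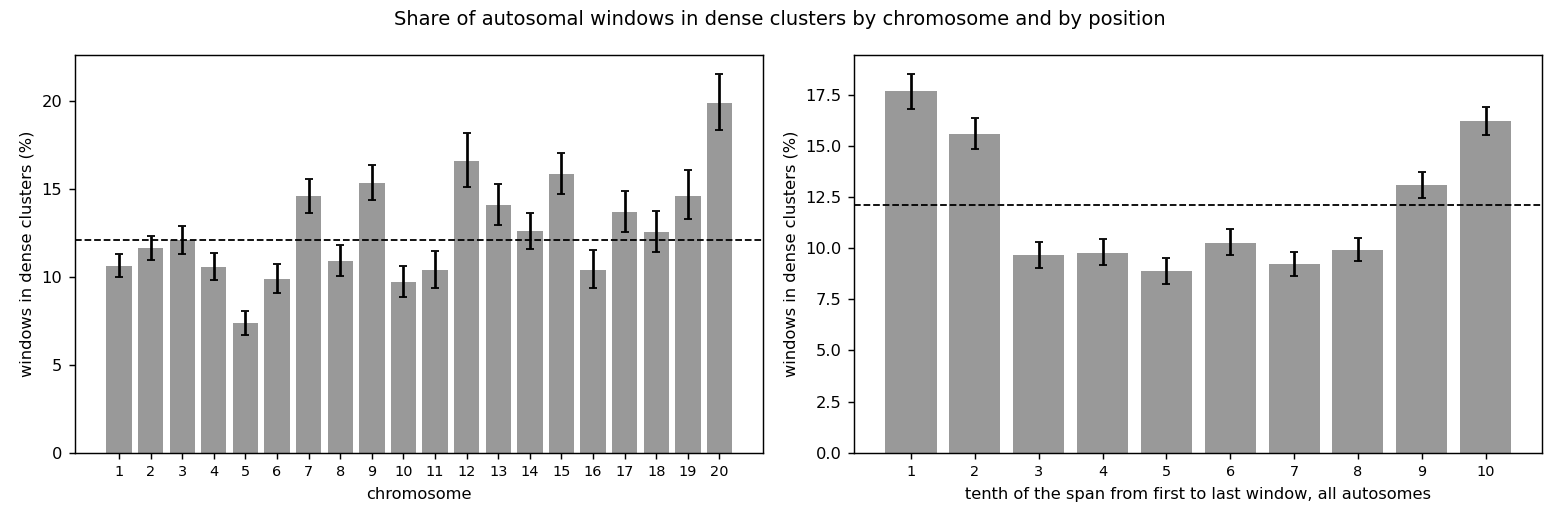
Share of autosomal windows lying in dense clusters (%, y axis) by chromosome (left) and by position in 10 equal parts of the span from the first to the last window, summed over the autosomes (right), with 95% Wilson intervals over windows and the share over the 20 autosomes, 12.1%, as a dashed line. Chromosome 20 has the highest share, 19.9%, chromosome 5 the lowest, 7.35%, and the outermost parts reach 17.7% and 16.2%.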

How the data were processed

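DMC1 SSDS of adult rat testis was analysed in 5 libraries, 1 per condition. According to the methods, the authors aligned reads to rn5 with a modified bwa and called hotspots from uniquely mapping type 1 single-stranded fragments with alignment scores over 30 in both reads. The submitters' processing notes name BWA 0.7.12, bedtools 2.23.0 and MACS2 2.1.0.20150420. The deposited table gives, per window and library, the hotspot strength as a score made by the authors and a call mark of 1 or 0. How strength was computed or normalized, and how windows were merged, is not given in the sources used here. Columns were assigned to libraries by the strain and genotype in their names. "SR" was read as SHR.

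Neighbours, kinds, clusters, medians and Wilson 95% intervals were computed with pandas 2.3.3 and numpy 2.4.6 in Python 3.11.15, and figures were drawn with matplotlib 3.10.9. Coordinates are those deposited. The functions were tested on 23012 simulated windows with 6 known answers, and 6 were recovered. Depth is unknown, and intervals cover counting error only. Named windows were the strongest called cluster window of each library. Named clusters were the 5 with most windows, the longest, and that with most windows of each kind. Members and lists were chosen with earlier results of these data known. The alternatives tried were other thresholds and radii, overlapping windows counted once, kinds whatever the other calls, the median of the same chromosome, chromosomes 12 and 20 left out and the densest windows left out.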

Additional observations from a re-analysis of the deposited data

How the results depend on the processing

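Of 66 recomputed values, 40 stayed within the interval of the reported value, 25 moved beyond it or were counts of cluster windows, which have no interval and changed by more than 1.5 times, and 1 changed direction. The share of WKY hotspots in clusters above the autosomal median was 51.4% with 6 or more others, the other side of the autosomal share, 43.5% with 10 or more and 44.8% with overlapping windows counted once. The share for BN was 52.9%, 59.9% and, with 4 or more others within 25000 bp, 52.6%. The number of cluster windows was 28301 with 6 or more others, 3453 with 10 or more, 18155 within 25000 bp and 4041 with overlapping windows counted once. The knockout share was 42.9% with 10 or more others, 43.9% within 25000 bp, 49.4% with overlapping windows counted once, 44.0% without chromosomes 12 and 20, and 47.1% without windows with 14 or more others, an alternative chosen after seeing the data. In these settings it stood above the autosomal share. The SHR/WKY-allele share was 33.8% within 25000 bp, 30.8% with overlapping windows counted once, 33.8% without chromosomes 12 and 20 and 34.4% whatever the other calls. The BN-allele share was 18.7% within 25000 bp, 18.6% without these chromosomes and 19.0% whatever the other calls. The share within 10 Mb of the last window was 11.5% with 6 or more others, 17.8% with 10 or more, 11.8% within 25000 bp and 12.4% without these chromosomes. The cause of these shifts was not tested. The values for SHR, KO/wt and KO/KO strength moved by less than their intervals. No paired analysis was possible because each condition has 1 library, replicate numbers are not shared as pairs and nothing was tested. The unknown depth and scaling of strength limit comparison to shares and order within a library, and the unknown merging of calls limits what a count of windows in a run of overlapping windows means.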

Other observations

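Chromosome X, which is single in males, was not part of the autosomal count. By the same rule 1217 of its 5520 windows (22.0%) lay in dense clusters, with at most 22 others within 50 kb. Of these, 38.3% were SHR/WKY-allele, 28.4% BN-allele, 27.2% knockout and 2.88% mixed windows, and 3.20% were called in KO/wt alone. Over the windows of chromosome X the shares were 42.4%, 29.9%, 22.6%, 3.33% and 1.83%. As on the autosomes, the knockout share was higher and the SHR/WKY-allele share lower in clusters than over the chromosome, without a test.

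Some called cluster windows had a strength of 0 or below in the library that called them, 35 in KO/KO, 14 in WKY, 7 in KO/wt, 5 in BN and 4 in SHR. Over the autosomes the counts were 106 of 35375 hotspots in KO/KO, 59 of 34872 in WKY, 25 of 19643 in KO/wt, 21 of 18995 in BN and 26 of 19898 in SHR. Among the 7273 cluster windows that overlapped no other window, these counts were 9 in KO/KO and 0 in the other libraries.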
